A study of Mus musculus with 31 samples.

Results

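T4 was compared with vehicle in the livers of 13 of the 31 mouse pups of this study. They are all the pups of genotype Dio1KO/Dio2KO/Pax8KO that the labels place under T4 (8 livers) or under vehicle (5 livers), and no measured value entered that choice. All 31 pups were C57Bl/6J animals at postnatal day 14, injected on alternate days starting at postnatal day 2, and all lacked Dio1 and Dio2, so no group with intact deiodinases stands beside them. Besides the vehicle and T4 livers, 3 groups served for reference: Dio1KO/Dio2KO/Pax8Het pups given vehicle (control, 5 livers) and Dio1KO/Dio2KO/Pax8KO pups given T3 (6 livers) or T3+T4 (7 livers). The labels give neither the doses nor the deleted part of each gene, and each animal is known by its number. Nothing in the labels ties animals to litters.

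Thyroxine (T4) is the main hormone released by the thyroid and acts largely as a precursor. The deiodinases encoded by Dio1 and Dio2 remove an outer-ring iodine and yield T3, the ligand with the higher affinity for the nuclear receptors encoded by Thra and Thrb, and the enzyme encoded by Dio3 inactivates both hormones. Pax8 is a transcription factor without which the follicular cells of the thyroid do not form. In liver the receptors bind DNA together with retinoid X receptors and control genes of lipid and cholesterol metabolism, Dio1 itself among them. The comparison asks which liver genes respond to T4 in a pup that has no thyroid and lacks both activating enzymes.

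Library totals were alike in both groups, from 4901954 to 5625282 counts in vehicle and from 4383769 to 6116826 in T4 livers. The 7 hepatocyte markers (Alb, Ttr and others) were high in every library, summing to 3581 to 4075 CPM (counts scaled to a common library size) in vehicle and 2950 to 3902 CPM in T4 livers. Genes of neighbouring tissues were raised in single libraries. The 9 tested pancreatic acinar genes summed to 143 and 289 CPM in vehicle animals 2019 and 37, against 5.34 to 20.6 CPM in the other 3 vehicle livers and 7.74 to 44.8 CPM in T4 livers. The 7 tested skeletal muscle genes summed to 156, 292 and 111 CPM in T4 animals 54, 69 and 71, against 2.64 to 34.7 CPM in the other 5 T4 livers and 2.42 to 11.5 CPM in vehicle livers. Xist and Y-linked genes went against the labelled sex in vehicle animal 67 and T4 animal 54, and by these genes 3 of 5 vehicle and 6 of 8 T4 pups were male. Without the animals of unmatched sex, in all groups, edgeR's quasi-likelihood test called 37 genes higher and 34 lower after T4, and 42 of them were among the 70 called with every library. In whole tissue, fewer cells of a type and less RNA per cell cannot be told apart.

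**Figure D1:**
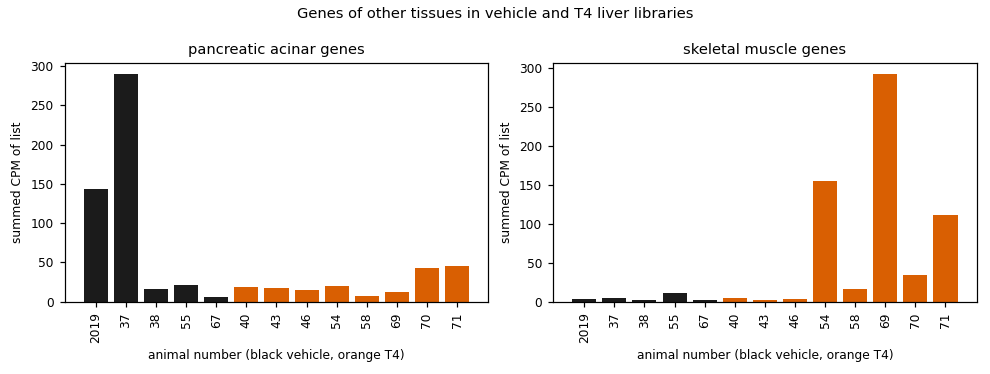
Summed level (CPM, linear axes from 0) of the 9 tested pancreatic acinar genes and the 7 tested skeletal muscle genes in each vehicle library (black) and each T4 library (orange), by animal number. Vehicle animals 37 and 2019 stand at 289 and 143 CPM of acinar genes, and T4 animals 69, 54 and 71 at 292, 156 and 111 CPM of muscle genes.

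Few genes passed the test between T4 and vehicle livers. Among the genes that passed, the pseudogene 9030619P08Rik had the largest rise. Dio1, Akr1c18, Cyp3a44, Nt5e, Tlcd2, Sbk1 and the fatty acid desaturase genes Fads1 and Fads2 were among the other rises. Falls included Nr5a2, a nuclear receptor of bile acid and cholesterol metabolism, the ankyrin gene Ank3 and the desmoglein gene Dsg1c. Of 17057 genes tested with edgeR (adjusted p under 0.05), 36 were higher after T4 (0.211%) and 34 were lower (0.199%). At an unadjusted p under 0.05 the numbers were 1046 higher (6.13%) and 1121 lower (6.57%), and DESeq2 called 119 higher and 118 lower. The 36 rises had a median log2 fold change of 0.75 and the 34 falls one of -0.52, beside a median of 0.001 over all genes. Changes over 2-fold were found in 13 of the 36 rises and 10 of the 34 falls, and 14 rises and 23 falls were under 1.5-fold. Vehicle and T4 libraries did not overlap for 20 of the 36 rises and 15 of the 34 falls. Over all genes tested, such separation was seen for 0.393% in the higher and 0.422% in the lower direction.

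The counts depended on single libraries. Fits that left out 1 of the 13 libraries called between 14 and 93 genes: 16 without vehicle animal 37, 18 without 38, 14 without 55, 93 without 2019, 36 without T4 animal 43, 33 without 58, 37 without 69, 38 without 70 and 31 without 71. The remaining fits, without vehicle animal 67 or T4 animal 40, 46 or 54, called 82, 59, 64 and 49 genes. Called in all 13 of these fits were 10 of the 70 genes, namely 9030619P08Rik, Nt5e, Tlcd2, Trim7, Sbk1, Cyp3a44, Phc2, Nr5a2, Ank3 and Msi2. The log2 fold changes of all 70 genes kept their sign in each of the 13 fits. A further fit left out, in all groups, the libraries with raised acinar or muscle genes, meaning a list mean of at least 5 CPM. It kept 3 vehicle, 5 T4, 2 control, 4 T3 and 2 T3+T4 livers. In this smaller fit 1 gene, 9030619P08Rik, was called. How far the loss of libraries by itself lowered the number of calls was not tested. Of the genes still tested, 69 of 69 kept their sign, and the medians were 0.72 for rises and -0.57 for falls. The 70 genes were called with these same libraries, so signs kept in these fits are largely given by that choice. With acinar and muscle levels as covariates, 18 genes were called higher and 15 lower.

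9030619P08Rik (ENSMUSG00000053168, chromosome 15, 75427606 to 75431829, minus strand in mm10) is annotated as a transcribed unprocessed pseudogene. Its levels in the vehicle livers of animals 2019, 37, 38, 55 and 67 were 2.67, 2.01, 1.21, 6.15 and 5.89 CPM, and the T4 livers ran from 22.5 to 59.5 CPM with a median of 46.1. Every T4 liver stood above every vehicle liver, the lowest of them being animals 70 and 69. The log2 fold change was 3.57 ± 0.28 (SE), an 11.9-fold rise (adjusted p = 4.14e-09 with edgeR). The call held in each of the 29 alternative settings, with an adjusted p of at most 0.0119. The mean after T4, 42.6 ± 13.5 CPM (SD, n = 8), was 45.5% of the control mean of 93.7 ± 13 CPM (n = 5).

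Dio1 (ENSMUSG00000034785, chromosome 4) belongs to the lists of thyroid hormone induced genes and of hormone transport, receptor and deiodinase genes, and was the 1 gene of either that passed the test. Its reads were still counted in these Dio1-null livers, and the remaining transcript was measured at 14.1, 12.6, 9.90, 19.3 and 7.73 CPM in vehicle animals 2019, 37, 38, 55 and 67. T4 livers ran from 18.8 to 64.5 CPM with a median of 28.4, animals 54 and 58 being highest, and animal 70 fell just under vehicle animal 55. The log2 fold change was 1.44 ± 0.32 (adjusted p = 0.041 with edgeR). This call was lost without vehicle animal 37, 38, 55 or 67 or T4 animal 54, 58 or 69, and the adjusted p ran from 0.000337 to 0.687 over the alternatives. After T4 the level was 20.3% of the control mean (169 ± 31.8 CPM, n = 5), and Dio1 was lower in T4 than in control (log2 fold change -2.30, adjusted p = 2.21e-05) and in T3 livers (log2 fold change -1.97, adjusted p = 0.000241).

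The other genes of hormone handling did not pass the test. Dio3, which inactivates both hormones, had mean deposited counts of 75.6 ± 20.4 in vehicle (n = 5) and 50 ± 25.6 in T4 livers (n = 8), with a log2 fold change of -0.64 (95% interval -1.34 to 0.05, adjusted p = 0.441 with edgeR). Dio2 was at counts of 15.4 ± 7.92 and 16.9 ± 13.1, and Pax8 at 8.8 ± 4.87 and 15 ± 7.52. Counts this low give wide intervals, from -0.70 to 0.78 for Dio2 and from -0.15 to 1.5 for Pax8 on the log2 scale. Thra had a log2 fold change of -0.17 (interval -0.30 to -0.04, adjusted p = 0.252) and Thrb, the main receptor of hepatocytes, one of -0.15 (interval -0.38 to 0.08, adjusted p = 0.629). Of the 31 tested genes of this list, 1 was higher and 0 were lower with edgeR, with a median of -0.04. At an unadjusted p under 0.05 the list had 1 higher and 5 lower, and DESeq2 called Dio1 higher and Ncoa1, a receptor coactivator gene, lower.

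Among the 17 thyroid hormone induced genes, 13 had a positive log2 fold change and 1 (Dio1) passed with edgeR, with a median of 0.32 against 0.001 over all genes. At an unadjusted p under 0.05 with edgeR, 5 were higher and 2 lower, beside 6.13% and 6.57% of all genes. DESeq2 called 3 of the 17 higher, Bcl3, Dio1 and Gpd2, and 0 lower. Gpd2, the mitochondrial glycerol phosphate dehydrogenase and a classical hormone target, was at 96.0, 45.0, 80.6, 36.7 and 190 CPM in vehicle animals 2019, 37, 38, 55 and 67. Vehicle animal 67 thus lay within the T4 range, in which the mean was 194 ± 60.1 CPM (n = 8). The log2 fold change of Gpd2 was 1.11 (interval 0.51 to 1.72, adjusted p = 0.0819 with edgeR). Bcl3, a nuclear cofactor of NF-kappaB, had a log2 fold change of 0.78 (interval 0.36 to 1.20, adjusted p = 0.0812). Thrsp, a lipogenic protein named for its response to thyroid hormone, reached 25.5 CPM in T4 animal 40 and 13.3 CPM in T4 animal 54, while the other T4 livers ran from 1.93 to 6.5 CPM and vehicle livers from 1.62 to 4.24 CPM. Its log2 fold change of 1.41 had an interval of -0.35 to 3.17.

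**Figure D2:**
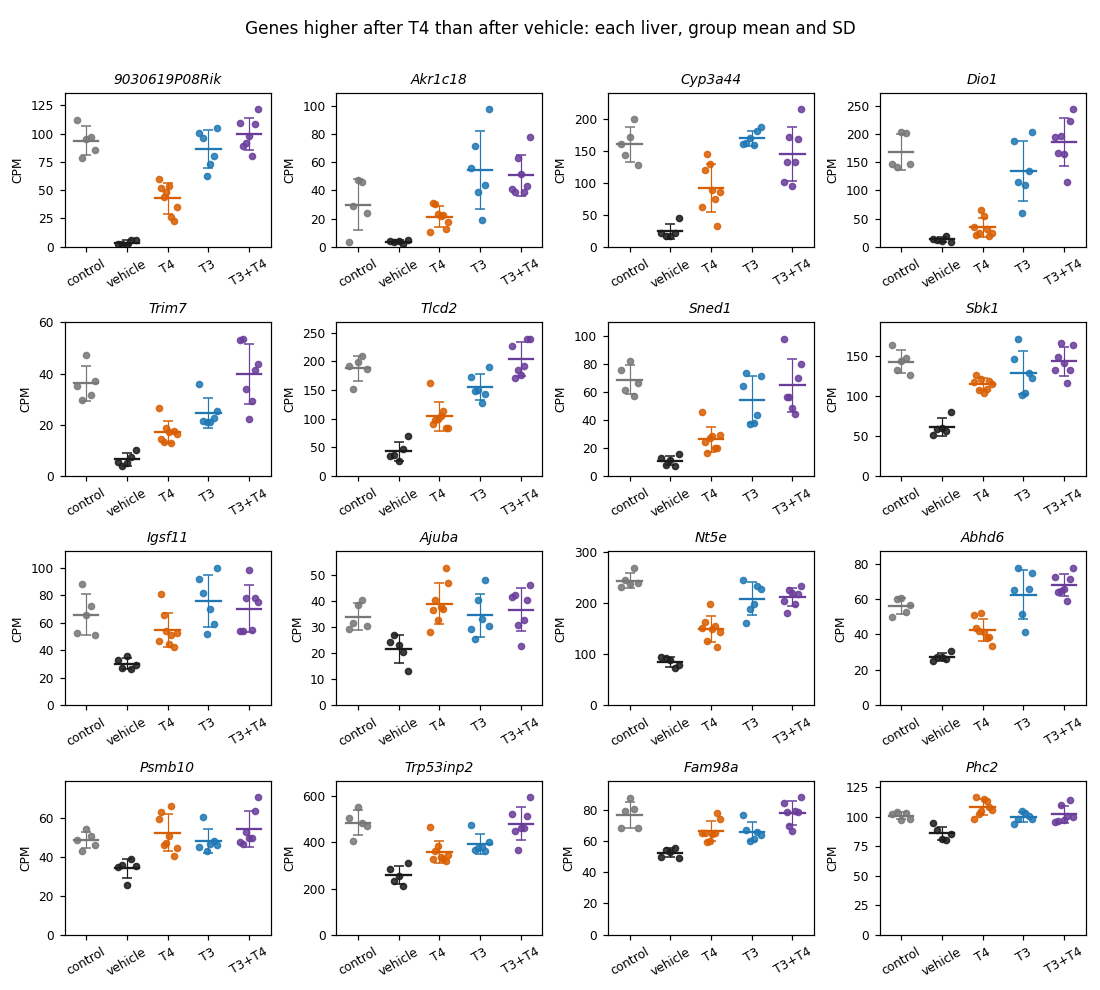
Level (CPM, linear axes from 0) of 16 genes that rose after T4, in each of 31 livers (points) by group, with the group mean (long bar) and SD (capped bar); genes are ordered by log2 fold change. 9030619P08Rik, Nt5e and Sned1 lie between vehicle and control after T4, at 45.5%, 61.5% and 38.4% of the control mean, while Phc2 and Ajuba reach 107% and 114% of it.

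Enzymes of steroid and drug metabolism made up part of the larger rises. Akr1c18, a 20-alpha-hydroxysteroid dehydrogenase that inactivates progesterone, was at 4.01, 3.10, 4.04, 1.70 and 4.97 CPM in vehicle animals 2019, 37, 38, 55 and 67. T4 livers ran from 10.4 to 31.2 CPM with a median of 22.2, all above every vehicle liver. The log2 fold change was 2.56 ± 0.49 (adjusted p = 0.0135 with edgeR), and the call was lost without vehicle animal 37 (adjusted p = 0.0546) or 55. Akr1c18 was the 1 of 18 tested steroid and retinoid metabolism genes that passed, and at an unadjusted p under 0.05 with edgeR 1 was higher and 5 lower. Among the 17 others, 14 had negative log2 fold changes, for example Rdh16, a retinol dehydrogenase, at -0.32 (adjusted p = 0.183).

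Cyp3a44, a cytochrome P450 of the CYP3A family, was at 20.8, 17.3, 17.4 and 21 CPM in vehicle animals 2019, 37, 38 and 55 and at 44.9 CPM in animal 67. T4 livers ran from 31.9 to 146 CPM with a median of 87.4, so the lowest, animal 70, fell below vehicle animal 67 and the groups overlapped. Cyp3a44 thus rose with a log2 fold change of 1.93 ± 0.28 (adjusted p = 0.000475 with edgeR). The related genes Cyp3a16 and Cyp3a41a had log2 fold changes of 1.17 (interval 0.55 to 1.79, adjusted p = 0.0739) and 1.59 (interval 0.63 to 2.54, adjusted p = 0.115), which did not pass. In Cyp3a16 vehicle animal 67 stood at 179 CPM, against 23.6 to 44.7 CPM in the other vehicle livers. These genes are near copies of each other, so their counts are uncertain to the extent that reads were split or shared between them. Of 27 drug metabolism genes, 1 was higher and 0 were lower with edgeR, 3 and 6 at an unadjusted p under 0.05, and 2 and 0 with DESeq2, while 21 had negative log2 fold changes.

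In lipid synthesis the called rises were small. Fads1 and Fads2, the delta-5 and delta-6 desaturases of polyunsaturated fatty acid synthesis, had means of 348 ± 57.3 and 145 ± 22.4 CPM in vehicle (n = 5) and 464 ± 41.6 and 184 ± 14.0 CPM in T4 livers (n = 8). Their log2 fold changes were 0.41 ± 0.09 (adjusted p = 0.0339 with edgeR) and 0.34 ± 0.08 (adjusted p = 0.0474), and vehicle animal 67 (441 and 177 CPM) lay within the T4 range in both. The call of Fads1 was lost without vehicle animal 2019, 37, 38 or 55, and that of Fads2 in 11 of the 13 fits that left out 1 library. These were the 2 of 24 lipogenesis and desaturation genes that passed, where 0.211% of all genes were higher. At an unadjusted p under 0.05 with edgeR, 8 of the 24 were higher and 2 lower, beside 6.13% and 6.57% of all genes. DESeq2 called the same 2 genes, Fads1 and Fads2, higher. Fasn, the fatty acid synthase, had a log2 fold change of 0.60 (interval 0.22 to 0.99, adjusted p = 0.134), and Me1, the malic enzyme that supplies NADPH to it, one of 1.00 (interval 0.26 to 1.74, adjusted p = 0.209). T4 animals 43 and 46 were highest in Me1, at 120 and 86.9 CPM, while the other T4 livers ran from 27.5 to 58.3 CPM and vehicle livers from 13.8 to 43.6 CPM.

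Sc5d, the lathosterol oxidase of cholesterol synthesis, was at 192, 216, 201, 256 and 124 CPM in vehicle animals 2019, 37, 38, 55 and 67. T4 livers ran from 242 to 332 CPM with a median of 275, so only vehicle animal 55 reached the T4 range. Its change of 0.50 ± 0.12 on the log2 scale (adjusted p = 0.0474 with edgeR) passed in 1 of the 13 fits that left out 1 library. Sc5d was the 1 of 25 cholesterol genes that passed, and at an unadjusted p under 0.05 with edgeR 2 were higher and 0 lower. Hmgcs1, the HMG-CoA synthase of that pathway, had a log2 fold change of 0.47 (interval 0.13 to 0.82, adjusted p = 0.208). Set against control livers, 9 of the 25 genes were lower in T4 livers, where 1.71% of all genes were lower.

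Abhd6 and Mgll, which hydrolyse monoacylglycerols, were both higher after T4. Abhd6 stood at 25.2, 27.4, 27.5, 25.9 and 30.6 CPM in vehicle animals 2019, 37, 38, 55 and 67. After T4 it ran from 33.5 to 52.1 CPM with a median of 41.6. The groups did not overlap, which the rule that named Abhd6 asked for. Its log2 fold change was 0.64 ± 0.12 (adjusted p = 0.0135 with edgeR), and the call was lost without vehicle animal 37 or 55. Mgll went from 209 ± 45.2 CPM (n = 5) to 310 ± 42.2 CPM (n = 8), a log2 fold change of 0.57 ± 0.13 (adjusted p = 0.0455 with edgeR). Vehicle animal 67, at 275 CPM, lay inside the T4 range, and Mgll passed in 3 of the 13 fits that left out 1 library. Abcd3, a transporter of fatty acids into peroxisomes, and Lmf2, a relative of the lipase maturation factor Lmf1, rose by 0.27 and 0.23 on the log2 scale, the smallest of the 36 rises together with those of Rfk (0.24), the riboflavin kinase, and Sepsecs (0.26), which acts in selenocysteine synthesis. In the same 13 fits Abcd3 and Lmf2 passed in 5 and 9, and Rfk and Sepsecs in 3 and 2.

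Nt5e (CD73, ENSMUSG00000032420, chromosome 9, 88327197 to 88372092) encodes the ecto-5'-nucleotidase that makes adenosine outside the cell. Its vehicle levels were 93.5, 92.7, 88.1, 72.8 and 77.9 CPM in animals 2019, 37, 38, 55 and 67, and T4 livers ran from 114 to 198 CPM with a median of 151. No T4 liver reached down to the vehicle range. The log2 fold change was 0.82 ± 0.11 (adjusted p = 7.89e-05 with edgeR), and it was called in 28 of 29 alternative settings. Sbk1, a serine/threonine kinase gene, was as clearly separated: vehicle livers were at 51.0, 58.4, 60.0, 56.2 and 79.7 CPM and T4 livers at 103 to 126 CPM with a median of 116. Its log2 fold change was 0.90 ± 0.11 (adjusted p = 7.89e-05), with vehicle animal 67 the highest of the vehicle livers.

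Tlcd2, which encodes a membrane protein of the TLC domain family, was at 34.5, 36.5, 26.9, 47.3 and 69.8 CPM in vehicle animals 2019, 37, 38, 55 and 67, and between 83.3 and 162 CPM (median 97.9) in T4 livers. Trim7, a RING-type ubiquitin ligase gene, was at 5.54, 4.01, 5.05, 7.21 and 10.3 CPM in the same vehicle livers and between 12.8 and 26.7 CPM (median 16.8) after T4. In both genes vehicle animal 67 was the highest vehicle liver and T4 animal 40 stood clear of the other T4 livers. The log2 fold changes were 1.27 ± 0.18 for Tlcd2 (adjusted p = 0.000219 with edgeR) and 1.41 ± 0.24 for Trim7 (adjusted p = 0.00396). Sned1, a secreted extracellular matrix protein gene, averaged 11 ± 3.45 CPM in vehicle and 26.5 ± 8.98 CPM after T4, a log2 fold change of 1.26 ± 0.26 (adjusted p = 0.0261), again with T4 animal 40 highest, and lost its call without vehicle animal 37, 38 or 55. By annotation, 19.6% of the exonic bases of Sned1 lie under another gene, nearly all of them on the opposite strand, as do 8.3% of those of Trim7, and 15.5% of those of Tlcd2 are shared with Mir22hg and Mir22 on the same strand. The labels do not say whether the counting used strand.

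The other named rises were smaller or rested on fewer libraries. Phc2, a Polycomb group gene, rose by 0.33 ± 0.05 on the log2 scale, from 86.0 ± 5.68 to 108 ± 6.60 CPM (adjusted p = 0.00136 with edgeR), with no overlap between the groups. Igsf11, a cell adhesion gene of the immunoglobulin superfamily, and Ajuba, a LIM domain protein gene, had log2 fold changes of 0.86 ± 0.18 (adjusted p = 0.0344) and 0.85 ± 0.18 (adjusted p = 0.0339), also with no overlap. Psmb10, an immunoproteasome subunit, Trp53inp2, a regulator of autophagy, and Fam98a had log2 fold changes of 0.62, 0.47 and 0.34, again with no overlap. These last 5 genes, like Abhd6 and Sned1 above, were named only by a rule that asked for no overlap. Akr1c18, Trim7, Tlcd2, Sbk1 and Nt5e were named by that rule and by another. Each of the 5 lost its call in 2 or more of the 13 fits that left out 1 library.

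Gbp11, a guanylate-binding protein gene annotated as a polymorphic pseudogene, and Zbp1, a sensor of Z-form nucleic acids, were raised most in 1 liver. Gbp11 reached 117 CPM in T4 animal 43, the other T4 livers ran from 6.20 to 21.6 CPM, and vehicle livers from 2.02 to 6.79 CPM. Its log2 fold change of 2.54 ± 0.54 became 1.69 without T4 animal 43 (adjusted p = 0.0339 and 0.0153 with edgeR), and the call was lost without vehicle animal 37, 38 or 55. Zbp1 was at 113 CPM in T4 animal 43 and at 22.3 to 57.0 CPM in the other T4 livers, against 4.04 to 23.1 CPM in vehicle livers. Its log2 fold change of 1.82 ± 0.39 (adjusted p = 0.0344) became 1.47 without that animal (adjusted p = 0.0515), and the call was also lost without vehicle animal 37, 38, 55 or 67 or T4 animal 69. Stat2, which relays type I interferon signals, had a log2 fold change of 0.51 ± 0.11 (adjusted p = 0.0446 with edgeR), and T4 animal 43 was its highest T4 liver. Stat2 passed in 4 of the 13 fits that left out 1 library. These 3 genes were chosen for description after their values were seen.

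Nr5a2 (LRH-1, ENSMUSG00000026398, chromosome 1, 136842571 to 136960448) was the 1 of 21 bile acid genes that passed the test. It was at 217, 234, 246, 232 and 297 CPM in vehicle animals 2019, 37, 38, 55 and 67 and ran from 140 to 185 CPM with a median of 171 in T4 livers. Every T4 liver lay below every vehicle liver, and the T4 mean of 166 ± 16.7 CPM (n = 8) stood beside a control mean of 166 ± 13.9 CPM (n = 5). This was a log2 fold change of -0.56 ± 0.09 (adjusted p = 0.00387 with edgeR). Cyp8b1, the sterol 12-alpha-hydroxylase, had a log2 fold change of 0.41 (interval 0.19 to 0.62, adjusted p = 0.0782), and Abcg5 and Abcg8, which form the sterol exporter of the bile canaliculus, had log2 fold changes of -0.42 (adjusted p = 0.0955) and -0.36 (adjusted p = 0.111). At an unadjusted p under 0.05 with edgeR, 1 of the 21 genes was higher and 4 lower. DESeq2 called Cyp8b1 higher and Abcg5 and Nr5a2 lower. Cyp7a1, the rate-limiting enzyme of bile acid synthesis, spread from 47.3 to 187 CPM in vehicle and from 45.7 to 230 CPM in T4 livers, with a log2 fold change of 0.19 (interval -0.53 to 0.90).

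Ank3, which encodes the membrane skeleton adaptor ankyrin-G, was at 88.4, 120, 122, 115 and 110 CPM in vehicle animals 2019, 37, 38, 55 and 67, and T4 livers ran from 52.1 to 78.5 CPM with a median of 64.8. Ank3 had a log2 fold change of -0.73 ± 0.13 (adjusted p = 0.0086 with edgeR). Msi2, an RNA-binding protein gene of the Musashi family, was at 96.0, 102, 106, 98.0 and 96.3 CPM in vehicle livers and at 59.3 to 84.9 CPM (median 68.4) after T4, a log2 fold change of -0.50 ± 0.08 (adjusted p = 0.00261). Neither gene overlapped between the groups, and in both the T4 mean was near the control mean, at 104% of it for Ank3 and 95.9% for Msi2.

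Dsg1c, a desmosomal cadherin gene, was at 58.4, 135, 112, 110 and 60.4 CPM in vehicle animals 2019, 37, 38, 55 and 67 and at 19.8 to 50.3 CPM (median 27.0) in T4 livers. Its log2 fold change was -1.54 ± 0.36 (adjusted p = 0.0474 with edgeR), with no overlap, and it passed in 3 of the 13 fits that left out 1 library. The paralogs Dsg1a and Dsg1b were far lower, at means of 4.71 and 4.40 CPM in vehicle and 1.61 and 1.64 CPM after T4, with log2 fold changes of -1.53 (adjusted p = 0.0344) and -1.42 (adjusted p = 0.0455). How reads were divided among these near copies is uncertain. The same holds for the processed pseudogenes Gm5582, Gm8783 and Gm15801, which had similar log2 fold changes of -0.55, -0.54 and -0.51.

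Among the other named falls, Tfdp2, the dimerization partner of E2F factors, had a log2 fold change of -0.52 ± 0.11 (adjusted p = 0.0344 with edgeR) and Slc22a15, an organic ion transporter gene, one of -0.53 ± 0.12 (adjusted p = 0.0455). Jade1 and Reps2 had log2 fold changes of -0.50 and -0.45, and Marf1, Tns3, Mut and Alcam ones of -0.34, -0.32, -0.28 and -0.27. Mut encodes methylmalonyl-CoA mutase and Alcam a cell adhesion molecule. In these 8 genes no T4 liver reached the vehicle range, which the rule for naming them asked for. The same rule took Dsg1c, Ank3, Nr5a2 and Msi2 above. The smallest log2 size among the 8 was that of Alcam. Tns3, a focal adhesion gene, lost its call in 13 of 13 fits that left out 1 library, and its adjusted p ran from 0.00721 to 0.687 over all alternatives. In the same 13 fits Tfdp2 passed in 5, Slc22a15 in 2, Jade1 in 10, Reps2 in 12, Marf1 in 12, Mut in 4 and Alcam in 9.

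Clps and Cym had the largest falls among the called genes, and both rested on few vehicle livers. Clps, the pancreatic colipase, was at 8.97, 37.2, 1.62, 2.33 and 0.184 CPM in vehicle animals 2019, 37, 38, 55 and 67 and at 0.161 to 1.40 CPM in T4 livers. Cym, chymosin, was at 9.92, 199, 27.7, 2.12 and 1.29 CPM in vehicle and 1.41 to 6.22 CPM in T4 livers. The log2 fold changes of -4.44 and -3.98 (adjusted p = 0.0474 and 0.0296 with edgeR) became -2.83 and -1.75 without vehicle animal 37 (adjusted p = 0.315 and 0.358). Clps passed in 1 and Cym in 9 of the 13 fits that left out 1 library. All 9 tested acinar genes had negative and all 7 tested muscle genes positive log2 fold changes, with medians of -3.80 and 3.71, and of these Clps was the 1 gene called with edgeR. At an unadjusted p under 0.05, 7 acinar genes were lower and 7 muscle genes higher, and DESeq2 called 6 acinar genes lower (Cel, Cela3b, Clps, Cpa1, Ctrb1 and Prss2) and 3 muscle genes higher. Vehicle animals 37 and 2019 and T4 animals 54, 69 and 71 carried the raised sums given above. Without the libraries with raised acinar or muscle genes, Cym had a log2 fold change of -2.14 (adjusted p = 0.713) and Clps did not pass the filter on low counts.

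**Figure D3:**
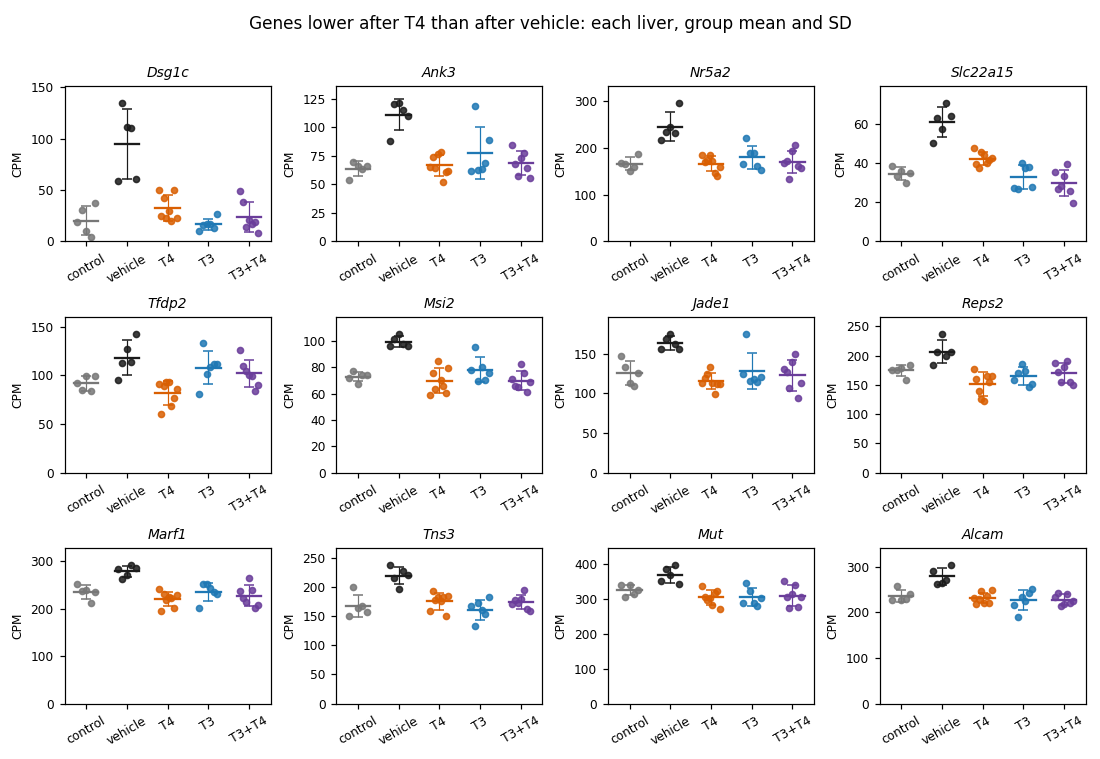
Level (CPM, linear axes from 0) of 12 genes that fell after T4, in each of 31 livers (points) by group, with the group mean (long bar) and SD (capped bar); genes are ordered from the largest fall. All 12 were chosen among falls without overlap, so the vehicle livers lie above the T4 livers by that choice. T4 means of Nr5a2, Ank3 and Msi2 stand at 100%, 104% and 95.9% of the control mean.

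Most of the 70 genes had also differed between vehicle and control livers, which use the same vehicle libraries as the T4 comparison. Of the 36 rises, 33 were lower in vehicle than in control (4.71% of all genes were), and of the 34 falls, 23 were higher (4.92% of all genes). Against control itself, a comparison that shares the T4 libraries, 12 of the 36 rises were still lower after T4 (1.71% of all genes). These were 9030619P08Rik, Nt5e, Dio1, Sned1, Tlcd2, Trim7, Rfk, Sepsecs, Abcd3, Trp53inp2, Sc5d and Abhd6. None of the 36 was higher than in control. Of the 34 falls, 1 was still higher after T4 than in control (1.83% of all genes), the antisense RNA gene 1810064F22Rik, with means of 6.41, 2.85 and 1.42 CPM in vehicle, T4 and control livers.

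The rises differed in how near the T4 level came to control. Among the 12 genes, the T4 mean was 20.3% of the control mean in Dio1, 38.4% in Sned1, 45.5% in 9030619P08Rik, 47.3% in Trim7, 55.5% in Tlcd2 and 61.5% in Nt5e, and from 74.0% to 83.4% in the other 6. Zbp1, E2f4, Phc2, Psmb10, Lmf2, Map7d1 and Ajuba had T4 means of 103% to 114% of control, and Tor3a one of 147% (log2 fold change 0.56 against control, adjusted p = 0.0636 with edgeR). The Zbp1 mean of 44.4 CPM after T4 included animal 43 at 113 CPM. The other T4 livers ran from 22.3 to 57.0 CPM, beside a control mean of 43.1 CPM. A T4 level that does not pass the test against control is not thereby shown to equal it.

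T3 livers gave a further reference, again against the same vehicle libraries. With T3, 34 of the 36 rises were higher (3.53% of all genes) and 29 of the 34 falls lower (3.24% of all genes), and with T3+T4 34 were higher (7.33%) and 30 lower (8.45%). In the direct comparison of T4 with T3, 5 of the 36 rises were lower after T4 (0.393% of all genes): Dio1, Sned1, 9030619P08Rik, Abhd6 and Nt5e, with log2 differences of -1.97, -1.05, -1.02, -0.56 and -0.48. Of the 34 falls, 1810064F22Rik was higher after T4 than after T3 (0.158% of all genes), by 1.10 on the log2 scale (adjusted p = 0.0497 with edgeR). Doses are not given in the labels, so T4 and T3 levels are set side by side without a matched dose.

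**Figure D4:**
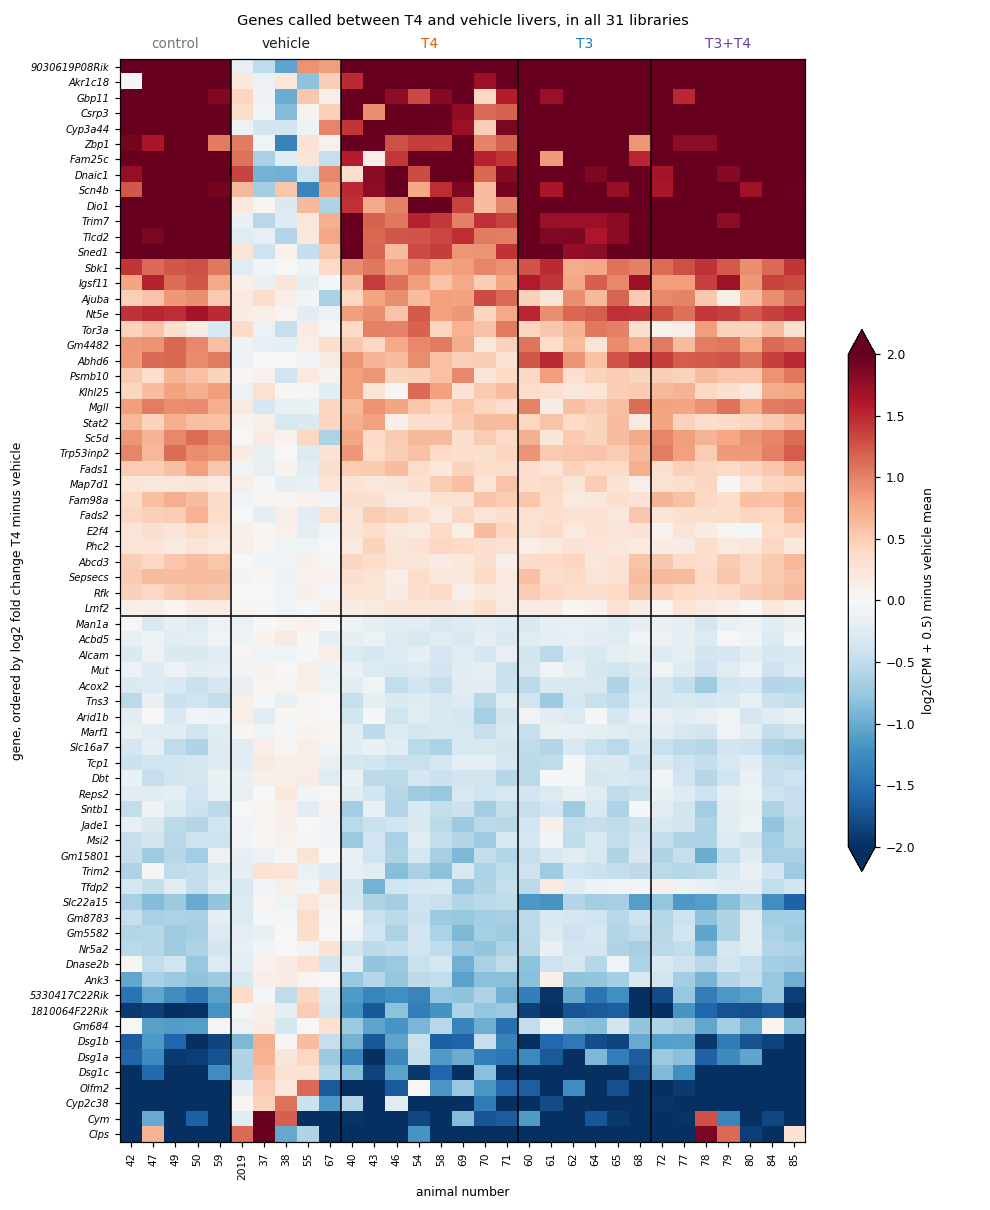
Heat map of the 70 called genes (rows, ordered by log2 fold change between T4 and vehicle) in all 31 libraries (columns, by group and animal number). Colour is log2(CPM + 0.5) minus the vehicle mean, limited at 2 in both directions; T4 animal 70 is palest among T4 livers in the upper block, standing above every vehicle liver in 27 of 36 rises.

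The T4 livers were not uniform. Animal 69 lay above every vehicle liver in 34 of the 36 rises and animal 70 in 27, with the other 6 T4 livers between. For falls the number of genes below every vehicle liver ran from 22 of 34 in animal 40 to 32 of 34 in animal 71. T4 animals 43 and 40 were the highest T4 livers in 9 and 8 rises. Vehicle animal 67, whose sex genes went against its label, had the highest vehicle level in Cyp3a44, Tlcd2, Trim7, Sned1, Sbk1, Fads1, Mgll and Trp53inp2, but the lowest in Dio1, Ajuba and Sc5d.

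The animals fall into number ranges, below 54 and from 54 to 85, which the labels do not call batches. Vehicle animal 2019 belongs to neither range and was left out of both fits limited by number. The fit for numbers below 54 limited the vehicle and T4 animals alone and kept all control, T3 and T3+T4 libraries. The fit for numbers 54 to 85 limited every group, so the numbers of calls in these fits are not matched. With T4 animals 40, 43 and 46 against vehicle animals 37 and 38, 37 genes were called higher and 13 lower, and 16 of the 50 were among the 70 genes. With animals numbered 54 to 85 alone, 2 were called higher and 6 lower, and 3 were among the 70 genes. In both ranges 36 of the 36 rises had a positive log2 fold change, and 33 of the 34 falls a negative one, Cym being the exception. The 70 genes were called with these same livers, so the shared signs are largely given by that choice and are no independent support. A fit with the range as a term, in which animal 2019 had a level of its own, called 42 genes higher and 45 lower.

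No member passed the test in 12 of 20 pathway lists. These were fatty acid oxidation and ketogenesis (27 tested genes, median log2 fold change -0.02), the growth hormone and IGF axis (16, -0.01), fetal and neonatal liver (13, -0.09), gluconeogenesis and glycogen (18, -0.12), urea cycle and amino acid breakdown (16, -0.22), nuclear genes of mitochondrial respiration (26, -0.04), circadian clock (18, -0.20), acute phase (16, -0.02), stress response (13, -0.06), immediate early and heat shock (13, -0.24), lipoproteins and lipases (19, -0.03) and sex-linked genes (5, 0.19). Of 200 memberships in these 12 lists, 6 were higher (3%) and 31 lower (15.5%) at an unadjusted p under 0.05 with edgeR, beside 6.13% and 6.57% of all genes, and DESeq2 called Stat5a higher and Rora, Herpud1, Cd36 and Lpl lower. Stat5a, the transducer of growth hormone signals, came near the threshold at 35.4 ± 4.11 CPM in vehicle and 51.7 ± 4.45 CPM in T4 livers (log2 fold change 0.54, interval 0.27 to 0.82, adjusted p = 0.0604 with edgeR). Its vehicle livers, from 31.1 to 40.3 CPM, lay below every T4 liver, from 46.1 to 60.1 CPM. In the urea cycle list 15 of 16 genes had negative log2 fold changes, for example Slc25a13, the aspartate and glutamate carrier, at -0.15 (interval -0.26 to -0.04, adjusted p = 0.208).

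Among 24 cell cycle genes 21 had positive log2 fold changes, with a median of 0.43, but the 1 gene that passed, Tfdp2, was lower. Ccnd1 (cyclin D1) had a log2 fold change of 0.51 (interval 0.12 to 0.90, adjusted p = 0.231 with edgeR), Cdk1 one of 0.61 (interval -0.03 to 1.25, adjusted p = 0.427) and the centromere histone gene Cenpa one of 0.63 (interval 0.17 to 1.09, adjusted p = 0.201). Vehicle animal 38 was the lowest vehicle liver in Cdk1 and Cenpa, at 8.28 and 16.2 CPM beside vehicle medians of 19.3 and 24.9 CPM. T4 animal 43 was the lowest T4 liver in both, at 13.9 and 17.4 CPM. In Ccnd1 the lowest livers were vehicle animal 55 and T4 animal 40. Nr4a1, an immediate early nuclear receptor gene, spread from 98.0 to 243 CPM in vehicle livers. Its T4 livers ran from 10.1 to 155 CPM (log2 fold change -1.55, interval -2.69 to -0.42, adjusted p = 0.204), and 3 of them were inside the vehicle range.

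In 9 of the 10 lists of cell type markers, skeletal muscle included, no member was called with edgeR. Of their 85 tested genes, 16 were higher (18.8%) and 2 lower (2.35%) at an unadjusted p under 0.05, beside 6.13% and 6.57% of all genes. The 16 held 7 muscle genes, which the raised libraries carried, and 5 Kupffer cell genes. DESeq2 called 3 members higher, the muscle genes Acta1, Ckm and Tnni2. The 11 Kupffer cell genes all had positive log2 fold changes, from 0.09 to 0.42 with a median of 0.21, for example C1qc (0.26, interval 0.09 to 0.43, adjusted p = 0.146 with edgeR). Their sum was 919 and 1001 CPM in vehicle animals 37 and 38 and 1240 to 1577 CPM in T4 livers. Vehicle animals 2019, 55 and 67, at 1373, 1274 and 1478 CPM, lay within the T4 range. Medians were 0.16 for erythroid, 0.12 for granulocyte, 0.30 for lymphocyte, -0.05 for endothelial, 0.14 for stellate, -0.05 for cholangiocyte and -0.07 for hepatocyte genes. All 7 hepatocyte genes had negative log2 fold changes, from -0.53 to -0.003.

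**Figure D5:**
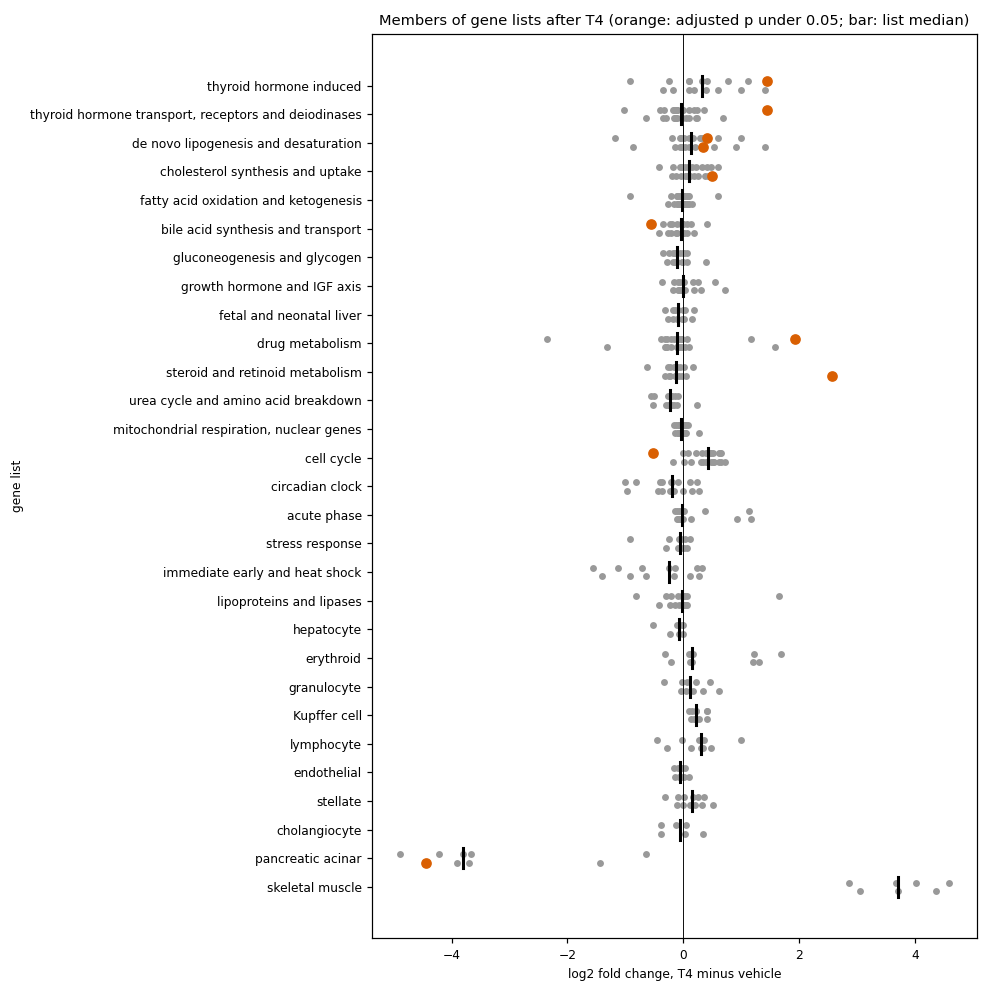
Log2 fold change (T4 minus vehicle) of the tested members of 29 gene lists, 1 row per list, with called genes in orange, other genes in grey and the list median as a black bar. Called genes are scattered over 9 lists with at most 2 in any of them, while acinar genes (median -3.80) and muscle genes (median 3.71) lie farthest from 0.

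Promoters of the called genes were read from RefSeq windows of the build GRCm38.p6, 250 bases before the start of transcription. Windows were matched for 27 of the 36 rises and 20 of the 34 falls. The motif searched was AGGTCA, the core hexamer bound by thyroid hormone receptors and by many other nuclear receptors, on both strands. It was present in 5 of 27 rises (18.5%) and 5 of 20 falls (25.0%), beside 15.8% of 27025 genes with a window. A direct repeat of AGGTCA with any 4 bases between both copies, which contains the first motif, was in 0 of the 27 and 0 of the 20, and in 4 of all genes (0.0148%). A match describes these letters in this window and is not a binding site shown by these data. The windows of Cyp3a44 and Ajuba (rises), Nr5a2 (fall) and Dio1 (rise) are shown because these genes carry results above and differ in the motif. Capitals mark the match, given on the strand of the gene, so that TGACCT is a match on the opposite strand; Dio1 has none here.
Cyp3a44, minus strand of chr5:145805875-145806124: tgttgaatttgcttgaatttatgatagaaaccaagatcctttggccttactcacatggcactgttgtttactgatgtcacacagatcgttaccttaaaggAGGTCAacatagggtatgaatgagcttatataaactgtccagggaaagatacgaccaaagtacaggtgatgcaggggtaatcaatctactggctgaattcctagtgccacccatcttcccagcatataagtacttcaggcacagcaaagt
Ajuba, minus strand of chr14:54577662-54577911: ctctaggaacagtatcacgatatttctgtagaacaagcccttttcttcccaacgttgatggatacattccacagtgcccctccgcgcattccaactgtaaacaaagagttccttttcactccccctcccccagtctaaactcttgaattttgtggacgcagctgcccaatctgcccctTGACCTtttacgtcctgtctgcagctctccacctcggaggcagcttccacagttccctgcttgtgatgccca
Nr5a2, minus strand of chr1:136960449-136960698: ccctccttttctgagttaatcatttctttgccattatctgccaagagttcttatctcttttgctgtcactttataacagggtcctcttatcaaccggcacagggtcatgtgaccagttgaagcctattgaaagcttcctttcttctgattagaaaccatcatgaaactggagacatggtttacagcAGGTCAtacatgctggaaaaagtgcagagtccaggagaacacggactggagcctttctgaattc
Dio1, minus strand of chr4:107307169-107307418: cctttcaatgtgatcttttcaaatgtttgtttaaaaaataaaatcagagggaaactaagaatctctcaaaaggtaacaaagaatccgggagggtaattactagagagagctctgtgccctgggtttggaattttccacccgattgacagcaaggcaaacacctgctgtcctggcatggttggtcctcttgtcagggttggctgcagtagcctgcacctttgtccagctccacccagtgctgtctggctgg
In Cyp3a44, Ajuba and Nr5a2 the match began 150, 72 and 64 bases before the start.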

How the data were processed

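RNA was extracted with TRIzol and entered a stranded mRNA library kit, per the labels' protocols. The authors deposited whole-number counts per gene for 43629 genes. Their lowest value is 1 in every column, so 1 may have been added to each at a step that is not stated. The submitters' processing notes list DESeq, BWA 0.7.10, Trimmomatic and bcl2fastq without roles, and name the human build GRCh38, whereas mm10 stands in the column names. The counting tool, its use of strand and its annotation are not given in the sources used here. Positions came from GENCODE M21 (mm10), which holds 97.3% of the gene IDs, and symbols from the deposited table.

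Counts as deposited were scaled by TMM, filtered by filterByExpr and compared by edgeR's quasi-likelihood test (version 4.0.16, R 4.3.3) over all 31 libraries with 1 mean per group and Benjamini-Hochberg adjustment at 0.05 over 17057 genes. The fit was tested on simulated data. CPM are scaled counts. Members, gene lists (20 pathway and 10 marker lists) and tests were chosen with earlier results of these data known. Named genes were the 12 largest rises and falls among called genes with a mean of at least 5 CPM and no overlap between groups, without clone names and pseudogenes, the 10 smallest adjusted p, up to 4 genes per list, and Pax8, Dio1, Dio2 and Dio3. Other called genes are named as parts of counted groups, and some genes under this rule are not reported here. Alternatives changed scaling, filter, tool (DESeq2 1.42.0), covariates and the libraries used. The fit that limited T4 and vehicle animals to numbers under 54 was chosen after seeing the data. So was the fit without T4 animal 43 and vehicle animal 37. Labels give separate animals but no litters, so p-values measure the spread between these animals.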

Additional observations from a re-analysis of the deposited data

Results flagged for a closer look

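Values were taken in 140 sets, those of 70 called genes in the vehicle and in the T4 livers. A gap was flagged if chance gives it in about 1 in 20 sets of independent, normally distributed values. These CPM values were not tested for normality and the sets share livers, so that rate is only a guide. Of the 140 sets, 13 held a liver set apart from the rest of its group by such a gap. T4 animal 40 was the highest T4 liver in 6 of them, with 307 CPM of Dbt, 59.5 CPM of Gm8783, 45.6 CPM of Sned1, 162 CPM of Tlcd2, 26.7 CPM of Trim7 and 468 CPM of Trp53inp2. T4 animal 43 stood apart in Gbp11 (117 CPM, the next liver at 21.6) and Zbp1 (113 CPM, the next at 57.0). T4 animal 54 was highest in Clps (1.40 CPM) and T4 animal 69 in Cym (6.22 CPM). Vehicle animal 37 was highest in Clps (37.2 CPM) and Cym (199 CPM), and vehicle animal 67 in Cyp3a44 (44.9 CPM).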

How the results depend on the processing

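Against 36 genes higher and 34 lower after T4, scaling by library total called 58 higher and 26 lower, with the median of all genes moved to 0.036 and the share of higher calls from 51.4% to 69.0%. Without a filter on low counts 18 were higher and 16 lower, with DESeq2 119 and 118, with the T4 and vehicle libraries alone 13 and 12, with animals 54 to 85 alone 2 and 6, with T4 and vehicle animals under 54 alone 37 and 13, and without T4 animal 43 and vehicle animal 37 together 9 and 6. Without libraries with raised acinar or muscle genes the numbers were 1 and 0, and with these levels as covariates 18 and 15. At an unadjusted p under 0.05 the fit without these libraries, made with edgeR alone, had 525 higher and 523 lower. Leaving out 1 library gave 8 to 44 higher and 5 to 49 lower. Median-of-ratios factors, a mean of at least 5 CPM, subtraction of 1 from each count, sex as a covariate, leaving out animals of unmatched sex, the number range as a term and library total as a covariate stayed within 1.5 times of both counts. Changes of direction were counted only for genes called with every library or in the alternative fit. Cym was the 1 such gene, with a log2 fold change of 1.10 (adjusted p = 0.864 with edgeR) in animals 54 to 85. The cause was not tested. Changes of sign in genes called in neither fit were not counted. No paired analysis was possible because the labels give each animal its own number and the groups share none.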
